A study of Mus musculus with 36 samples.

Results

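The activity-regulated immediate early genes described here are 35 genes, from *Fos* to *Inhba*, whose transcription in neurons rises within minutes to hours of synaptic activity. They were picked by gene name from a list of activity-regulated genes and stand among 53274 genes that the annotations of all ages share. Each of the 35 was found once at every age, and all 35 passed the filter on low counts at 1, 2 and 3 months. The question put to them was whether their level differed between *Tpp1*-/- and control mice, in which region and at which age.

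In neurons, calcium entering through NMDA receptors and voltage-gated channels activates kinases that phosphorylate CREB and the partners of serum response factor, and these turn on the immediate early genes without new protein synthesis. The first of them encode transcription factors (the Fos, Jun, Egr, Nr4a and Klf families and Npas4), which then drive later genes. Others act at the synapse or outside the cell (Arc, Homer1, Nptx2, Bdnf, Vgf, Inhba), and a last class (the Dusp phosphatases, Btg2, Sik1, Trib1) damps the signal again. In the resting adult brain their levels follow the recent activity of an animal, also its handling before death, and they are much used as markers of active neurons.

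The libraries are bulk RNA-seq of 2 brain parts, cerebellum (Cb) and the forebrain together with the midbrain (F/M), from mice in which the *Tpp1* gene, which encodes a lysosomal protease lost in CLN2 disease, was disrupted by gene targeting in the germ line (*Tpp1*-/-), and from unaffected mice of the same heterozygous crosses and age as controls. At each of 1, 2 and 3 months there were 3 *Tpp1*-/- and 3 control libraries per region, 36 in all, and the controls were wild type except replicate 3 of 1 month, which was *Tpp1*+/- in both regions. All mice of 2 months were male, whereas replicate 1 was female at 1 month and replicate 3 was female at 3 months, in both genotypes and regions. The libraries held between 10609896 and 29942380 counted reads (median 21049839), and *Tpp1* itself stood at 16.1 to 27.8 CPM (edgeR's depth-scaled counts, with TMM factors) in the *Tpp1*-/- libraries and at 42.1 to 111 CPM in the controls. Because the counts are of whole tissue, fewer cells of a type and less RNA per cell cannot be told apart in any value below.

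In control mice most of the set was expressed more highly in F/M than in Cb. A gene is called here where edgeR's quasi-likelihood test gave an adjusted p under 0.1 (Benjamini-Hochberg over all genes tested) with at least a 1.5-fold difference. At 2 months 22 of the 35 genes were lower in Cb and 3 were higher, beside 21.9% and 17.4% of the 17229 genes tested. At 1 month the counts were 21 lower and 2 higher (21.1% and 15.8% of all genes), and at 3 months 24 lower and 1 higher (19.9% and 17.8%). The median log2 difference of the set, Cb minus F/M, was −1.08, −1.13 and −1.41 at 1, 2 and 3 months, against 0.02, −0.01 and 0.04 over all genes.

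The steepest difference was that of *Egr3*, a zinc finger factor of the Egr family (ENSMUSG00000033730, chromosome 14, 70077203 to 70082614). At 2 months the F/M controls held 237, 154 and 207 CPM and the Cb controls 3.74, 2.58 and 2.70 CPM, a log2 difference of −6.07 ± 0.17 (SE). *Nptx2*, a secreted pentraxin that clusters AMPA receptors, differed by −4.17 ± 0.18, and *Ptgs2*, the inducible cyclooxygenase of excitatory forebrain neurons, by −3.90 ± 0.19. *Dusp5*, a nuclear phosphatase of ERK, went the other way. Its F/M controls of 2 months held 12.7, 11.6 and 13.2 CPM and its Cb controls 127, 88.8 and 106 CPM, a log2 difference of 3.10 ± 0.12, and it was called higher in Cb at all ages.

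Levels between genes are compared per kb of exon. In the F/M controls of 2 months the order began with *Vgf*, the precursor of secreted neuropeptides, at 60.6 ± 7.02 CPM per kb, *Egr1* at 48.2 ± 4.79 CPM per kb, *Egr3* at 45.2 ± 9.46 CPM per kb and *Arc*, the capsid-like regulator of AMPA receptor endocytosis, at 40.7 ± 10.7 CPM per kb. *Egr1*, *Egr3* and *Arc* did not differ from their neighbour beyond its SD. The order ended with *Atf3*, a stress-responsive partner of Jun proteins, at 0.282 ± 0.0379 CPM per kb. In the Cb controls *Jund* (49.1 ± 6.99 CPM per kb) and *Dusp5* (43.3 ± 7.64 CPM per kb) led, within their SDs, and *Jun* followed at 17.9 ± 0.810 CPM per kb. At the end stood *Egr2* with 0.0641 ± 0.0209 CPM per kb, a gene with 3 to 6 reads in each of these libraries.

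**Figure D1:**
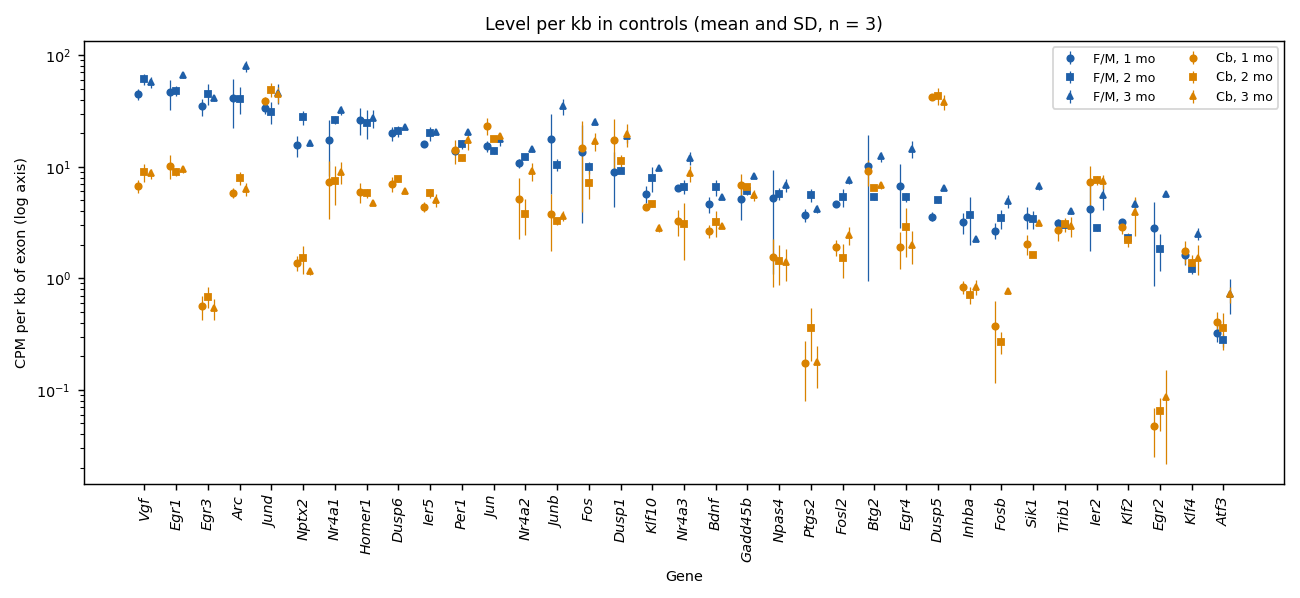
Level of each of the 35 genes in controls as CPM per kb of exon (log axis), mean with SD of 3 libraries, in F/M (blue) and Cb (orange) at 1, 2 and 3 months, ordered by F/M at 2 months. *Egr3* fell from 45.2 in F/M to 0.682 in Cb at 2 months, whereas *Dusp5* rose from 5.05 to 43.3.

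Promoters of *Fos*, *Nr4a1* and *Npas4*, each called between genotypes in 2 comparisons, and of *Dusp1*, which holds a full cAMP response element, are shown because the set is defined by a shared way of being switched on. RefSeq promoters (GRCm38.p6, 250 bases before to 50 after a start) were given for 26 of the 35 genes, in 38 windows. *Egr1*, *Egr3*, *Arc*, *Ier2*, *Klf10*, *Nptx2*, *Sik1*, *Trib1* and *Vgf* had no entry. The core of the cAMP response element, at which CREB binds (TGACG, either strand), was present in 22 of the 38 windows, beside 20.8% of all 32851 windows. Counted by gene, 19 of the 26 genes had it in at least 1 window, beside 23% of all genes. The full palindrome TGACGTCA, which holds the core on both strands, was in 2 windows (*Dusp1* and *Btg2*; 1.79% of all windows), the CArG box of serum response factor in 5 windows (of *Egr2* and *Dusp5*; 1.63%), and the AP-1 site TGANTCA in 1 window (of *Bdnf*; 7.81%). Some windows of *Egr2* overlap and hold the same CArG box. By gene it was in 2 of the 26, beside 1.81% of all genes. Over the 250 bases before the start alone, the TGACG core was in 21 windows (17.8% of all). These are matches of letters, and none was tested for binding. The 250 bases before the start follow, 5′ to 3′ on the strand of the gene, with matches to the TGACG core or the palindrome in capitals.
*Fos* promoter, chr12:85473640-85473889, plus strand: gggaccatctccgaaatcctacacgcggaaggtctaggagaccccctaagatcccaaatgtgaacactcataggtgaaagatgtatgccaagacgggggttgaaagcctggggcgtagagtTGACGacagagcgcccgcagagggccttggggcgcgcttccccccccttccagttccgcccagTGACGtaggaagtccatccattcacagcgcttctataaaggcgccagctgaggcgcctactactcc
*Nr4a1* promoter, chr15:101266596-101266845, plus strand: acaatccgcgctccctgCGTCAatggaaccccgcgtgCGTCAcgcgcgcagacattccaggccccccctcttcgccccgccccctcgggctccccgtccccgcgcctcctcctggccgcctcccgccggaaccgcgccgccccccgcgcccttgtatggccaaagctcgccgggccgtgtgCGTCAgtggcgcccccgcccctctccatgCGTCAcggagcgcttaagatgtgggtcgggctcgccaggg
*Npas4* promoter, chr19:4989972-4990221, minus strand: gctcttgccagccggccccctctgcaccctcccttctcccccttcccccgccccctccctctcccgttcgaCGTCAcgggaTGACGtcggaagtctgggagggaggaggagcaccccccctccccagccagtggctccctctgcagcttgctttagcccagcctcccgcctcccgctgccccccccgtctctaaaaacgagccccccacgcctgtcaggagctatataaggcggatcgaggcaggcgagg
*Dusp1* promoter, chr17:26508473-26508722, minus strand: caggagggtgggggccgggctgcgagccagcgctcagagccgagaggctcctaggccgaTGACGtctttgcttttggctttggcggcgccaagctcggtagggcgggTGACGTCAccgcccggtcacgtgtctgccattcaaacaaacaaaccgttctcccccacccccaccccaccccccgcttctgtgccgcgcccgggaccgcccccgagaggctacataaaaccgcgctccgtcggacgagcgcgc

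At 1 month the set varied widely between the mice of a group. The plot of deviations from the group mean shows replicate 1 high in every group. For 17 of the 35 genes replicate 1 was the highest library in all 4 groups of this age, beside 4.13% of the 17916 genes tested, and for 14 genes replicate 3 was the lowest in all 4 groups, beside 3.08%. *Fos*, which encodes an inducible partner in the AP-1 dimer (ENSMUSG00000021250, chromosome 12, 85473890 to 85477273), is an example. Its F/M controls held 59.1, 22.5 and 13.2 CPM and its Cb controls 59.4, 36.04 and 8.56 CPM, in the order of the replicate numbers. The *Tpp1*-/- libraries of F/M held 71.7, 15.97 and 15.1 CPM and those of Cb 106, 23.4 and 15.3 CPM, so that replicate 1 stood above the other two of its group each time and the genotypes overlapped.

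The 17 genes were *Fos*, *Fosb*, *Fosl2*, *Jun*, *Junb*, *Jund*, *Egr1*, *Egr2*, *Egr4*, *Nr4a1*, *Nr4a2*, *Npas4*, *Ier2*, *Dusp1*, *Btg2*, *Klf10* and *Sik1*, that is most of the transcription factors, *Ier2* and several feedback genes. *Homer1*, a postsynaptic scaffold gene whose short induced form is not separated from the long one in gene counts, and *Per1* were instead lowest in replicate 1 in all 4 groups. The 4 libraries of replicate 1 are from female mice and the 8 others from males, and the control replicate 3 is heterozygous, so sex, mouse and replicate number cannot be told apart here. At 2 months replicate 2 was lowest in all 4 groups for 6 genes (*Egr3*, *Arc*, *Ier2*, *Dusp1*, *Dusp5* and *Vgf*; 2.62% of all genes) and replicate 1 highest for 3 (*Arc*, *Npas4* and *Dusp1*; 2.8%), among male mice throughout. Genes that respond to glucocorticoids stood apart in the same libraries of 1 month: the sum of the 12 was 345 and 370 CPM in replicate 1 of F/M (control and *Tpp1*-/-) and 330 and 432 CPM in replicate 1 of Cb, against 627 to 882 CPM in replicates 2 and 3, and its part in the levels of the set was not tested.

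**Figure D2:**
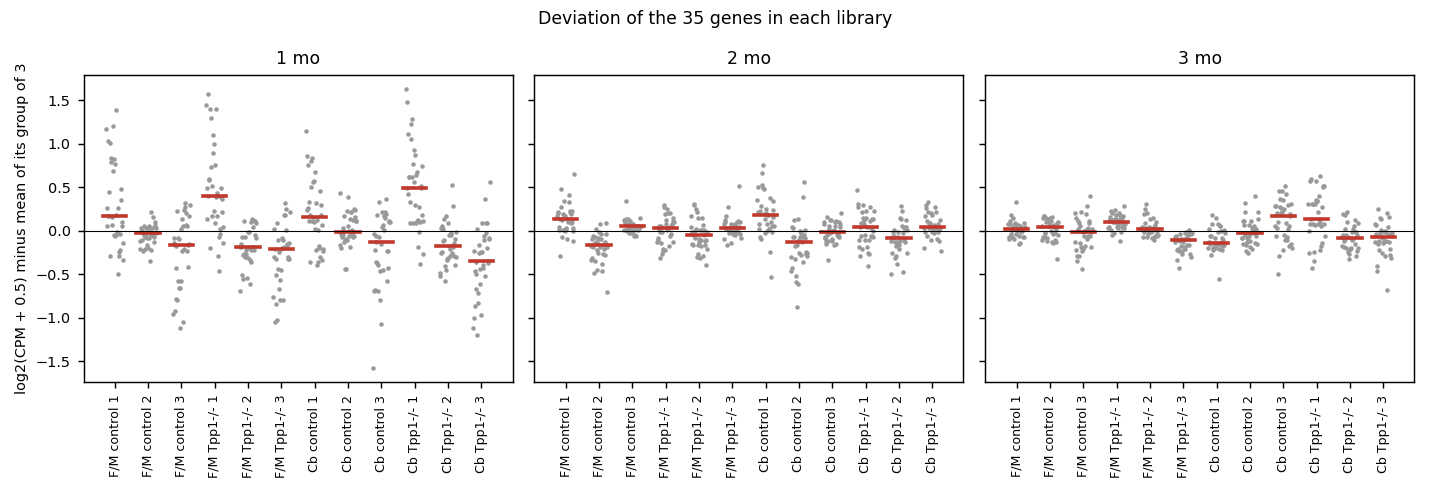
Each grey point is 1 of the 35 genes in 1 library, as log2(CPM + 0.5) minus the mean of its group of 3, and each red bar is the median of a library. At 1 month the medians of replicate 1 lie above 0 in all 4 groups and those of replicate 3 below it, and the spread of the points is wider than at 2 and 3 months.

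None of the 35 genes was called at 1 month, in F/M or in Cb, where 0.0112% of all genes were called in each region (0 of the set also by DESeq2 and limma-voom). At an unadjusted p under 0.05, F/M had 1 gene lower (*Vgf*, −0.28 ± 0.11, adjusted p = 1; 0.982% of all genes were lower at that p) and none higher, and Cb had 2 genes higher (*Klf2* and *Nr4a3*; 4.31%) and none lower. The median log2 fold change of the set was 0.06 in F/M and 0.16 in Cb, beside 0.00 and 0.01 over all genes. In F/M 13 fold changes were below 0 (51.1% of all genes), and the groups did not overlap for 1 gene in the lower direction (6.49%) and 2 in the higher (8.31%). In Cb 8 were below 0 (48.6%), and the groups were separate for 1 gene in the higher direction (4.26%) and for none in the lower (3.71%). *Klf2*, a Krüppel-like factor, had 5.75, 4.55 and 5.54 CPM in the Cb controls and 14.8, 7.28 and 6.78 CPM in *Tpp1*-/-. These groups did not overlap (0.87 ± 0.27, adjusted p = 0.63). The other large fold changes in Cb were those of *Egr2* (1.09, at 0.53 CPM or less in every library, too low for a firm fold change), *Egr4*, *Nr4a3* and *Nr4a1* (0.55 to 0.83 on the log2 scale), with overlapping groups in which *Tpp1*-/- replicate 1 was highest. *Nr4a3*, an orphan nuclear receptor gene, held 20.7, 13.9 and 24.1 CPM in controls and 42.8, 20.1 and 24.7 CPM in *Tpp1*-/-. *Egr4* held 5.75, 3.56 and 2.92 CPM against 12.7, 6.46 and 2.26 CPM, *Nr4a1* 41.2, 21.7 and 14.3 CPM against 72.0, 22.9 and 16.9 CPM, and *Egr2* 0.243, 0.135 and 0.101 CPM against 0.526, 0.329 and 0.136 CPM.

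In F/M the largest fold changes of 1 month were those of *Jund*, *Inhba*, *Atf3*, *Klf4* and *Btg2*, all with overlapping groups. *Jund*, the least inducible Jun gene, had 63.1, 56.3 and 49.9 CPM in controls and 60.1, 38.1 and 28.0 CPM in *Tpp1*-/- (−0.42 ± 0.27, adjusted p = 1). *Inhba*, the activin subunit, had 15.8, 20.6 and 24.7 CPM and 14.1, 14.8 and 18.2 CPM, and *Btg2*, an antiproliferative adaptor of mRNA deadenylation, 57.0, 16.8 and 10.1 CPM and 70.7, 17.1 and 15.1 CPM. *Atf3* and *Klf4* stayed under 7.1 CPM in every library of this comparison (0.777, 0.749 and 0.565 CPM against 1.25, 0.818 and 0.586 CPM for *Atf3*, 4.83, 4.10 and 5.82 CPM against 6.96, 4.69 and 7.03 CPM for *Klf4*). The median standard error of a log2 fold change in the set was 0.258 in F/M and 0.266 in Cb, against 0.141 and 0.162 at 2 months, and with sex as a covariate it was 0.176 and 0.181, and with the replicate number as a block 0.137 and 0.144, again with no gene called in either fit. With the forebrain and the midbrain and thalamus scores as covariates, by contrast, 18 of the 35 genes were called in Cb at 1 month, with a median standard error of 0.411.

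**Figure D3:**
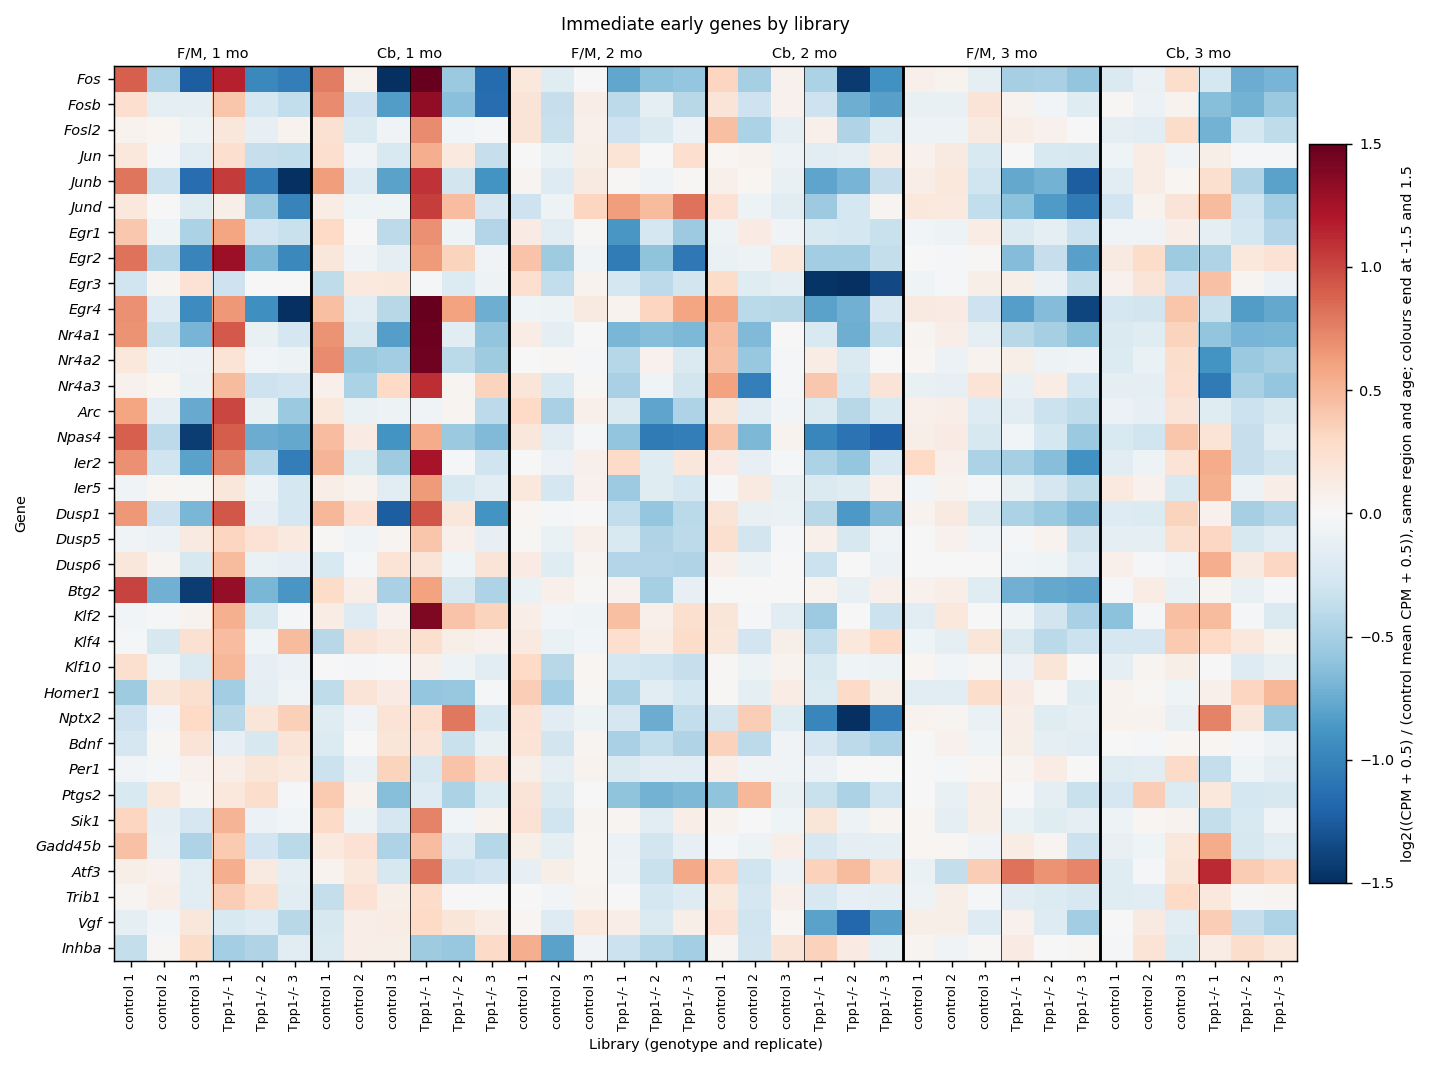
Level of the 35 genes (rows) in the 36 libraries (columns) as log2((CPM + 0.5) / (control mean CPM + 0.5)) within each region and age, blue below and red above the control mean, with colours ending at −1.5 and 1.5. The *Tpp1*-/- columns of 2 months are blue for *Fos*, *Npas4* and *Dusp1* in both regions, and those of F/M at 1 month carry a red replicate 1.

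At 2 months most of the set had negative fold changes in the F/M of *Tpp1*-/- mice. Of the 35 genes 5 fell (*Egr2*, *Npas4*, *Ptgs2*, *Fos* and *Nr4a1*), beside 0.0871% of all genes called lower (15 of 17229), and 1 rose (*Jund*), beside 0.65% called higher (0.737% in both directions). At an unadjusted p under 0.05, 17 genes were lower and 1 was higher, where all genes had 7.27% lower and 9.61% higher. The fitted fold change was below 0 for 28 of the 35 (49.1% of all genes), and the median of the set was −0.30 on the log2 scale beside 0.00 over all genes. The groups did not overlap for 12 genes in the lower direction (8.84% of all genes) and 1 in the higher (9.46%). F/M control replicate 2 was the lowest control for 30 of the 35 genes and replicate 1 the highest for 24. Choroid plexus markers summed to 256, 653 and 404 CPM in control replicates 1, 2 and 3, and the part of this was not tested.

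Among the transcription factors, *Npas4*, a neuron-specific factor induced by calcium entry (ENSMUSG00000045903, chromosome 19, 4984355 to 4990316) whose promoter is printed with its TGACG cores, had 21.1, 16.6 and 18.2 CPM in controls and 12.2, 8.71 and 8.80 CPM in *Tpp1*-/-. All *Tpp1*-/- libraries lay below all controls, and the log2 fold change was −0.89 ± 0.18, adjusted p = 0.0268. *Fos* had 26.1, 20.4 and 23.3 CPM in controls and 13.3, 15.0 and 15.4 CPM in *Tpp1*-/-, again without overlap (−0.68 ± 0.20, adjusted p = 0.0951). *Nr4a1*, the orphan receptor Nur77 (ENSMUSG00000023034, chromosome 15, 101254269 to 101274795), had 70.2, 59.1 and 65.0 CPM and 40.2, 41.3 and 40.6 CPM, with closely spaced *Tpp1*-/- libraries under all controls (−0.67 ± 0.17, adjusted p = 0.0556). *Egr2*, at 8.51, 4.11 and 5.92 CPM in controls and 2.74, 3.91 and 2.68 CPM in *Tpp1*-/-, had the largest fold change of the set in this comparison (−0.98 ± 0.24, adjusted p = 0.0556). Its controls spanned more than their distance to the highest *Tpp1*-/- library.

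*Egr1*, the most used activity marker of the family, fell short of the fold threshold: its log2 fold change was −0.54 ± 0.11, adjusted p = 0.028, with groups that did not overlap. The ERK phosphatase genes *Dusp1* (−0.46 ± 0.11, adjusted p = 0.0547) and *Dusp6* (−0.45 ± 0.09, adjusted p = 0.0212) did so too. *Ptgs2* (ENSMUSG00000032487, chromosome 1, 150100031 to 150108227) fell from 29.2, 21.9 and 25.6 CPM to 16.6, 15.5 and 15.9 CPM (−0.67 ± 0.14, adjusted p = 0.0312). *Arc* (−0.47 ± 0.15, adjusted p = 0.136), *Bdnf*, the neurotrophin gene (−0.44 ± 0.14, adjusted p = 0.125), and *Nptx2* (−0.45 ± 0.14, adjusted p = 0.113) had negative fold changes that did not pass. *Jund* (ENSMUSG00000071076, chromosome 8, 70698949 to 70700616) was the gene called higher, with 41.7, 48.9 and 64.5 CPM in controls and 80.0, 72.3 and 91.1 CPM in *Tpp1*-/- (0.65 ± 0.15, adjusted p = 0.046), while *Vgf* held 184, 158 and 199 CPM and 193, 155 and 191 CPM.

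These calls rested on few libraries. The count of 6 was 0 without F/M *Tpp1*-/- replicate 3, 1 without F/M *Tpp1*-/- replicate 1 and 2 without F/M control replicate 3; *Npas4* lost its call only without *Tpp1*-/- replicate 3, *Jund* also without control replicate 1 and *Tpp1*-/- replicate 1, *Egr2* and *Nr4a1* without control replicate 3 and *Tpp1*-/- replicates 1 and 3, *Ptgs2* without these and control replicate 1, and *Fos* without control replicate 3, any of the *Tpp1*-/- libraries or either Cb replicate 3. *Fos* and *Nr4a1* were not called by DESeq2, nor therefore where edgeR, DESeq2 and limma-voom all had to call a gene (4 of the 35 in both cases), *Fos* was not called with RLE size factors, and *Egr2* was not called in a fit of the 6 F/M libraries alone.

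In the Cb of 2 months 7 of the 35 genes were called, beside 2.05% of all genes. All 7 fell (*Egr3*, *Nptx2*, *Npas4*, *Vgf*, *Fos*, *Junb* and *Dusp1*), beside 1.8% of all genes called lower, and none rose (0.25%). At an unadjusted p under 0.05, 14 genes were lower and none higher, where all genes had 6.82% lower and 2.85% higher. The median of the set was −0.24 beside 0.00 over all genes, with 28 of 35 fold changes below 0 (49.9%) and 11 genes whose groups did not overlap in the lower direction (10.5%), against none in the higher (7.65%).

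*Npas4* held 6.44, 2.76 and 4.89 CPM in the Cb controls and 2.15, 1.91 and 1.75 CPM in *Tpp1*-/- (−1.23 ± 0.26, adjusted p = 0.00968). No *Tpp1*-/- library reached the lowest control. *Fos* held 21.2, 11.8 and 17.6 CPM and 12.01, 5.90 and 8.75 CPM (−0.89 ± 0.21, adjusted p = 0.0203), and here 1 *Tpp1*-/- library lay above the lowest control. *Junb*, another AP-1 gene (ENSMUSG00000052837, chromosome 8, 84974484 to 84978718), held 7.94, 7.69 and 6.89 CPM and 4.11, 4.45 and 5.81 CPM (−0.68 ± 0.14, adjusted p = 0.00679), and *Dusp1* (ENSMUSG00000024190, chromosome 17, 26505590 to 26562128) 35.02, 28.2 and 28.6 CPM and 22.8, 16.6 and 19.1 CPM (−0.64 ± 0.11, adjusted p = 0.00115), both without overlap. *Ier2* (−0.45 ± 0.13, adjusted p = 0.0816) passed the test but not the fold threshold.

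*Egr3*, *Nptx2* and *Vgf*, all called lower in Cb than in F/M in controls, fell further in the *Tpp1*-/- Cb. *Egr3* held 3.74, 2.58 and 2.70 CPM in controls and 0.764, 0.454 and 0.875 CPM in *Tpp1*-/- (−2.10 ± 0.32, adjusted p = 0.000457). *Nptx2* (ENSMUSG00000059991, chromosome 5, 144545902 to 144557478) held 3.11, 5.11 and 3.35 CPM and 1.71, 0.818 and 1.62 CPM (−1.49 ± 0.29, adjusted p = 0.00454). *Vgf* (ENSMUSG00000037428, chromosome 5, 137026392 to 137033351) held 31.2, 21.6 and 27.3 CPM and 15.1, 11.5 and 15.0 CPM (−0.94 ± 0.14, adjusted p = 0.000356). In each of them every *Tpp1*-/- library was below every control. *Egr2* had 3 to 6 reads in each Cb control and 0 to 1 in each *Tpp1*-/- library, too few for a usable fold change (adjusted p = 0.215).

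Some markers of neighbouring tissue were lower in the same Cb libraries. Of 14 midbrain and thalamus markers 6 were called lower in the *Tpp1*-/- Cb of 2 months, among them *Tcf7l2*, with 31.8, 37.7 and 35.6 CPM in controls and 3.57, 5.09 and 4.69 CPM in *Tpp1*-/-, and *Lhx9*, with 13.1, 18.3 and 14.8 CPM and 1.57, 1.14 and 1.37 CPM. The median log2 fold change of the 14 was −1.14, and their mean log2 level was 2.51 to 2.93 in controls and 1.29 to 1.70 in *Tpp1*-/-, while the sum was 1028 to 1096 CPM and 952 to 1094 CPM. That sum was higher in the Cb controls than in the F/M controls (401 to 443 CPM), so in Cb it is not a measure of neighbouring tissue. Of 15 forebrain neuron markers 1 was called lower (*Drd2*) and 1 higher (*Lamp5*), with sums of 871 to 951 and 874 to 898 CPM, and none of the 15 was at 0 throughout a group. In F/M the forebrain list stood at 2491 to 2602 CPM in controls and 2227 to 2292 CPM in *Tpp1*-/- (5 of 15 lower at an unadjusted p under 0.05, none called), and the midbrain and thalamus list at 401 to 443 CPM in controls and 505 to 506 CPM in *Tpp1*-/- (2 of 14 called higher). Oligodendrocyte markers had a median of −0.25 in Cb, with 9 of 10 below 0 and 6 lower at an unadjusted p under 0.05 (sums of 6987 to 7265 and 5720 to 7202 CPM), and cerebellum markers had a median of 0.19 in F/M, with 6 of 15 higher at that p and *En2* called higher (332 to 380 and 370 to 387 CPM). Astrocyte markers summed to 4902 to 5846 CPM in the F/M controls and 6154 to 7614 CPM in *Tpp1*-/-, with 10 of 10 fold changes above 0, 6 of them at an unadjusted p under 0.05 and none called. Neuron markers summed to 8067 to 8151 and 6953 to 8016 CPM there, with 3 of 10 lower at that p and none called. Microglia markers (13 of 15 above 0, 4 at that p, median 0.17) and endothelium and mural markers (11 of 12 above 0, 3 at that p, median 0.18) had no gene called in F/M, with sums of 480 to 602 against 546 to 645 CPM and 466 to 489 against 488 to 626 CPM. Choroid plexus markers were higher in *Tpp1*-/- in both regions at this age, with 10 of 14 called in F/M (sums of 256 to 653 against 565 to 767 CPM) and 8 of 14 in Cb (1034 to 1330 against 1688 to 1865 CPM).

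With the score over the forebrain and the midbrain and thalamus markers together as a covariate, no gene of the set passed at 2 months in either region. The median standard error rose to 0.335 in F/M and 0.453 in Cb. The Cb fold changes then stood at −2.39 ± 0.93 (SE) for *Egr3*, −2.41 ± 0.70 for *Npas4*, −0.95 ± 0.41 for *Vgf*, −0.70 ± 0.40 for *Junb* and −0.55 ± 0.61 for *Fos*, whereas *Nptx2* turned to 0.56 ± 0.69. In F/M *Fos* stood at −0.82 ± 0.49, *Npas4* at −0.65 ± 0.40 and *Nr4a1* at −0.72 ± 0.42, and *Jund* went from 0.65 to −0.05 ± 0.32. In Cb both marker lists had lower mean log2 levels in every *Tpp1*-/- library than in any control. This fit could therefore not part marker level from genotype there. In F/M the forebrain sum was lower and the midbrain and thalamus sum higher in *Tpp1*-/-, and the joint score mixed both. The part of the marker levels in the result was not tested. Leaving out 1 library kept the Cb calls of *Egr3*, *Nptx2*, *Npas4* and *Vgf*, while *Junb* lost its call without Cb *Tpp1*-/- replicate 1, and *Fos* and *Dusp1* without Cb control replicate 1 or Cb *Tpp1*-/- replicate 2.

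**Figure D4:**
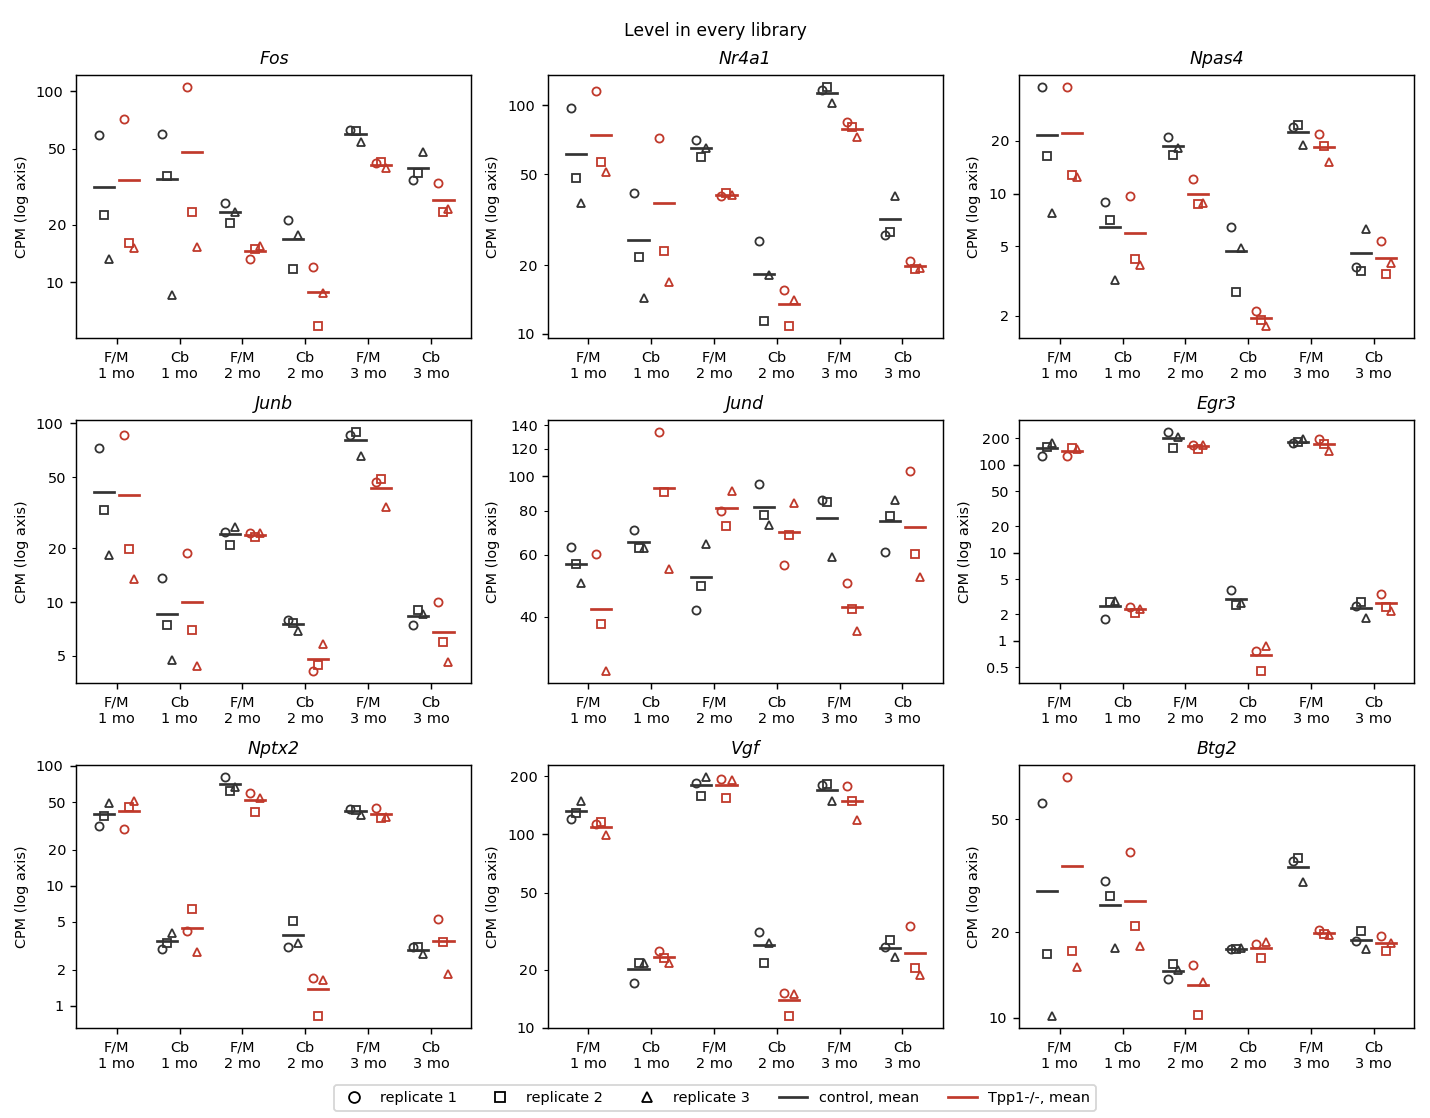
CPM (log axis) of 9 genes in each of the 36 libraries, controls in black and *Tpp1*-/- in red, with the replicate number as symbol and the group mean as a bar. *Fos* of *Tpp1*-/- lies under the controls in F/M at 2 and 3 months, and *Jund* of F/M lies above them at 2 months and under them at 3 months. *Egr3*, *Nptx2* and *Vgf* drop in Cb at 2 months, and the change to 3 months passed its test for *Egr3* and *Nptx2* but not for *Vgf*.

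At 3 months 1 gene of the set was called in F/M, *Btg2*, beside 0.464% of all genes called and 0.0523% called lower (9 of 17224), and none was called higher (0.412%). *Btg2* (ENSMUSG00000020423, chromosome 1, 134075170 to 134079120) held 35.5, 36.6 and 30.0 CPM in controls and 20.4, 19.7 and 19.5 CPM in *Tpp1*-/- (−0.77 ± 0.10, adjusted p = 0.00334), and it kept its call without any 1 library. More of the set lay low without passing. At an unadjusted p under 0.05, 11 genes were lower and 1 was higher (2.14% and 3.8% of all genes), 30 of 35 fold changes were below 0 (50.7%), and the groups did not overlap for 14 genes in the lower direction (12.3%).

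The largest of these fold changes belonged to *Egr4*, *Atf3*, *Junb* and *Jund*. *Egr4*, another zinc finger factor of the Egr family, held 34.3, 34.1 and 25.03 CPM in controls and 17.3, 19.7 and 11.6 CPM in *Tpp1*-/- (−0.94 ± 0.22, adjusted p = 0.136). *Junb* held 86.0, 89.8 and 65.2 CPM and 47.1, 49.0 and 33.9 CPM (−0.89 ± 0.21, adjusted p = 0.142), and *Jund*, which had risen at 2 months, 85.5, 84.5 and 59.0 CPM and 49.8, 42.0 and 36.3 CPM (−0.84 ± 0.23, adjusted p = 0.278). None of these groups overlapped. *Atf3* pointed the other way, with 1.43, 1.12 and 2.17 CPM in controls and 3.15, 2.81 and 2.93 CPM in *Tpp1*-/- (0.90 ± 0.29, adjusted p = 0.462). *Fos* held 62.8, 61.7 and 54.5 CPM and 42.1, 42.4 and 39.4 CPM (−0.53 ± 0.14, adjusted p = 0.243), and *Nr4a1* 116, 121 and 102 CPM and 84.5, 80.2 and 72.4 CPM (−0.52 ± 0.13, adjusted p = 0.211).

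How many genes passed in F/M at 3 months depended on the fit. The shares of all genes called in the other fits are not given here, so these counts cannot be read as particular to the set. DESeq2 called 5 (*Btg2*, *Egr2*, *Egr4*, *Junb* and *Jund*), limma-voom 3 and a fit of the 6 F/M libraries alone 7, and the count was 5 without Cb *Tpp1*-/- replicate 1 and 2 without Cb control replicate 3 or without Cb *Tpp1*-/- replicate 3. With the same joint marker score as a covariate *Btg2* stood at −1.06 and did not pass, with a median standard error of 0.48 in the set. The midbrain and thalamus sum was 518 to 531 CPM in these controls and 438 to 468 CPM in *Tpp1*-/-. Oligodendrocyte markers (10 of 10 below 0, 2 at an unadjusted p under 0.05, sums of 6738 to 6998 and 5671 to 6309 CPM) and cerebellum markers (14 of 15 below 0, 3 at that p, 393 to 424 and 349 to 379 CPM) had lower sums in the same *Tpp1*-/- libraries with none called, and their part in the values of the set was not tested.

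In the Cb of 3 months all 3 genes of the Nr4a family fell. *Fosb*, *Nr4a1*, *Nr4a2* and *Nr4a3* were called, all lower, beside 0.859% of all genes called and 0.186% called lower, and none was called higher (0.673%). *Nr4a1* held 27.1, 27.8 and 40.1 CPM in controls and 20.9, 19.3 and 19.4 CPM in *Tpp1*-/- (−0.67 ± 0.14, adjusted p = 0.0397). *Nr4a2*, the receptor gene Nurr1 (ENSMUSG00000026826, chromosome 2, 57106830 to 57124003), held 32.2, 34.5 and 44.5 CPM and 19.7, 25.1 and 26.1 CPM (−0.65 ± 0.13, adjusted p = 0.0344), and *Nr4a3* (ENSMUSG00000028341, chromosome 4, 48045153 to 48086447) 46.9, 47.2 and 62.1 CPM and 24.7, 37.0 and 34.7 CPM (−0.70 ± 0.16, adjusted p = 0.0917). *Fosb*, a Fos family gene whose truncated product accumulates with repeated activity (ENSMUSG00000003545, chromosome 7, 19302696 to 19310051), held 4.87, 4.495 and 5.01 CPM and 2.91, 2.75 and 3.10 CPM (−0.72 ± 0.14, adjusted p = 0.0256). In all of them every *Tpp1*-/- library lay below every control. Cb control replicate 3 held the highest value of all 3 Nr4a genes and was the highest control for 23 of the 35 genes. It also stood apart in choroid plexus markers (1574 CPM in sum, against 998.5 and 1043 CPM in the other controls) and in the tenth of genes richest in G and C (a median deviation of 0.22 on the log2 scale, against −0.10 and −0.07), as did Cb *Tpp1*-/- replicate 1 (1763 against 864 and 894 CPM, and 0.16 against −0.09 and −0.11), and the part of this in the values was not tested.

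*Fos* had 34.2, 37.1 and 47.8 CPM and 32.9, 23.5 and 24.2 CPM there and missed the adjusted threshold (−0.56 ± 0.14, adjusted p = 0.144), as did *Egr4*, with 3.48, 3.44 and 5.88 CPM and 3.27, 2.16 and 2.30 CPM (−0.72 ± 0.28, adjusted p = 0.587). *Atf3* was again on the higher side, with 1.30, 1.51 and 1.82 CPM in controls and 3.95, 2.16 and 2.07 CPM in *Tpp1*-/- (0.82 ± 0.29, adjusted p = 0.478). At an unadjusted p under 0.05, 8 genes were lower and 3 higher (3.26% and 3.23% of all genes), and the median of the set was −0.05 beside 0.00. The groups did not overlap for 9 genes in the lower direction (4.2%) and 3 in the higher (4.46%).

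Microglia markers rose in the same libraries, with 10 of 15 called higher in Cb (sums of 193 to 238 CPM in controls and 412 to 644 CPM in *Tpp1*-/-) and 4 of 15 in F/M (531 to 564 against 719 to 791 CPM). Astrocyte markers summed to 6235 to 6389 CPM in Cb controls and 6849 to 6980 CPM in *Tpp1*-/-. In F/M their sums were 7066 to 7220 and 7286 to 7898 CPM. The part of both lists in the values of the set was not tested. Of 10 neuron markers none was called in either region at this age, with median fold changes of −0.06 in F/M and −0.08 in Cb and 3 of 10 lower in Cb at an unadjusted p under 0.05. Forebrain neuron markers had a median of −0.41 in this Cb comparison, with 12 of 15 below 0, 5 lower at that p and *Lamp5* called lower, and sums of 780 to 852 CPM in controls and 708 to 824 CPM in *Tpp1*-/-. The count of 4 in Cb was 1 without Cb control replicate 3 and 2 without Cb control replicate 1, Cb *Tpp1*-/- replicate 2 or Cb *Tpp1*-/- replicate 3, and 0 in a fit of the 6 Cb libraries alone. *Nr4a2* lost its call without Cb control replicate 3 or Cb *Tpp1*-/- replicate 1, *Nr4a1* without Cb control replicate 3 or Cb *Tpp1*-/- replicate 2 or 3, *Fosb* without Cb control replicate 1 or Cb *Tpp1*-/- replicate 2, and *Nr4a3* without any of 11 of the 12 libraries. *Fosb* and *Nr4a3* were also not called by limma-voom, nor was *Fosb* with the replicate number as a block or *Nr4a3* with RLE size factors.

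**Figure D5:**
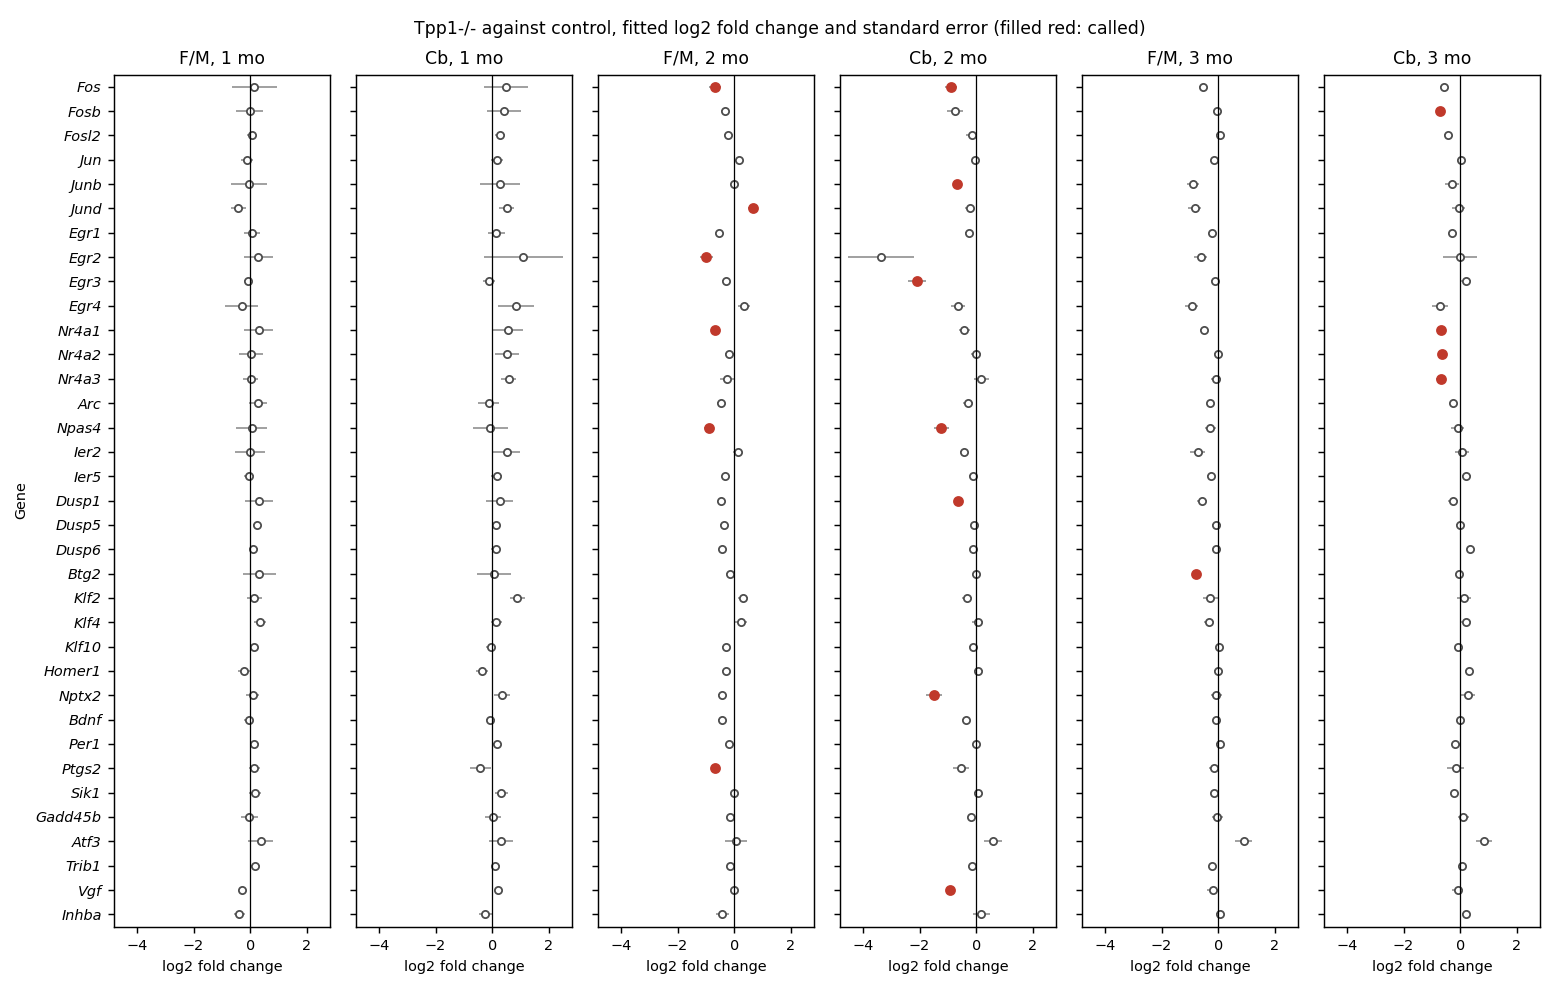
Fitted log2 fold change, *Tpp1*-/- against control, of the 35 genes with its standard error in the 6 comparisons. Filled red points were called (adjusted p under 0.1 with at least a 1.5-fold difference): none at 1 month, 6 and 7 in F/M and Cb at 2 months, and 1 and 4 at 3 months.

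Side by side, *Fos* had negative fold changes in each comparison of 2 and 3 months, of −0.68 ± 0.20 and −0.89 ± 0.21 in F/M and Cb at 2 months and −0.53 ± 0.14 and −0.56 ± 0.14 at 3 months, and passed in the first 2 of them. *Nr4a1* stood at −0.67 ± 0.17, −0.42 ± 0.19, −0.52 ± 0.13 and −0.67 ± 0.14 in the same order, and *Egr1* at −0.54 ± 0.11, −0.28 ± 0.12, −0.22 ± 0.10 and −0.28 ± 0.10. *Npas4* stood at −0.89 ± 0.18 and −1.23 ± 0.26 at 2 months and at −0.28 ± 0.21 and −0.08 ± 0.24 at 3 months.

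Whether an effect differed between regions was tested as its own contrast, which draws on the same libraries as the effects. At 2 months 4 genes differed, all more negative in Cb (*Egr3*, *Vgf*, *Jund* and *Junb*), beside 2.79% of all genes. The difference, Cb minus F/M, was −1.79 ± 0.34 (adjusted p = 0.00599) for *Egr3*, −0.94 ± 0.18 (adjusted p = 0.00647) for *Vgf*, −0.89 ± 0.21 (adjusted p = 0.0299) for *Jund* and −0.67 ± 0.17 (adjusted p = 0.0494) for *Junb*. For *Fos* it was −0.21, with a 95% interval of −0.77 to 0.35, and for *Npas4* −0.34 (−0.96 to 0.28). At 1 and 3 months no gene of the set differed (edgeR; 0% and 0.00581% of all genes; with same-numbered F/M and Cb libraries as a block the counts were 1 and 0, and 5 at 2 months), although *Btg2* at 3 months had a difference of 0.74 ± 0.15 (unadjusted p = 0.000178, adjusted p = 0.402) and *Nr4a2* one of −0.64 ± 0.19 (adjusted p = 1).

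Between 2 and 3 months the effect on *Egr3* in Cb changed by 2.29 ± 0.40 (adjusted p = 0.000646) and that on *Nptx2* by 1.76 ± 0.48 (adjusted p = 0.0657), both toward 0 or above (2 of 35 genes higher, 1.3% of all genes), and the effect on *Jund* in F/M changed by −1.48 ± 0.37 (adjusted p = 0.0921) (1 gene lower, 0.235%). For *Fos* the change was 0.16 in F/M, with an interval of −1.46 to 1.78, and 0.34 in Cb (−1.31 to 2.00). Midbrain and thalamus markers had a lower mean log2 level in the *Tpp1*-/- Cb at 2 months, whereas the groups overlapped at 3 months. It was then 2.285 to 3.119 in controls and 2.698 to 2.915 in *Tpp1*-/-, and the part of these markers in the changes was not tested. The 36 libraries share 1 estimate of the spread in this fit, those of 1 month included. Age, annotation release and strand setting of the counts changed together and cannot be told apart.

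Of 34 further activity-regulated genes none was called in any of the 6 comparisons of genotype, where between 0.0112% and 2.05% of all genes were. Their median in F/M at 2 months was −0.17, with 12 genes lower and 1 higher at an unadjusted p under 0.05, beside 7.27% and 9.61% of all genes. Elsewhere it was 0.06 in F/M and 0.09 in Cb at 1 month, −0.06 in Cb at 2 months (6 lower, 1 higher), −0.05 in F/M at 3 months (3 lower, none higher) and 0.04 in Cb at 3 months (1 lower, 3 higher). *Rgs4*, a brake on G protein signalling, had a log2 fold change of −0.36 ± 0.07 (adjusted p = 0.0254) in F/M and a log2 fold change of −0.39 ± 0.09 (adjusted p = 0.0136) in Cb at 2 months. Of 36 upstream genes (NMDA receptor and calcium channel subunits, CaM kinases, calcineurin, the ERK cascade, CREB, serum response factor and MEF2) none was called either, with medians between −0.10 and −0.01. In the contrast between regions at 2 months 1 of the 34 genes of the first list was called lower, *Scg2*, the secretogranin II gene. *Camk2a*, a CaM kinase gene of the second list, was called lower too, beside 2.79% of all genes called lower. Their fold changes in Cb were −0.44 ± 0.06 (adjusted p = 0.000181) and −0.49 ± 0.09 (adjusted p = 0.00277). Of 15 clock genes, relatives in function of *Per1*, none was called, and *Per1* itself passed in no comparison of genotype. Of 12 glucocorticoid-responsive genes 1 was called, *Fkbp5*, higher in the Cb of 3 months (0.73 ± 0.13, adjusted p = 0.0141).

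Within groups many of the genes varied together from library to library. Over the 36 libraries the deviations from the group mean correlated at 0.95 between *Junb* and *Ier2*, 0.95 between *Fos* and *Dusp1*, 0.95 between *Fos* and *Nr4a1* and 0.90 between *Fos* and *Npas4*, while *Homer1* and *Dusp1* had −0.65. These values describe libraries that the genes share, and the spread is widest at 1 month.

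In some comparisons the fold changes of the set ran with the base composition of the transcripts. *Egr4*, *Jund*, *Vgf* and *Junb* have 68.2%, 67.1%, 64.1% and 62.6% G and C in their longest transcript, at or above the 98.7th percentile of the genes tested, and *Homer1* has 36.9%. Over the 35 genes the correlation of G and C content with the log2 fold change was 0.49 in F/M at 2 months, −0.45 in F/M at 3 months and 0.54 in Cb at 1 month, beside −0.03, −0.14 and 0.27 over all genes. It was −0.10 in F/M at 1 month, −0.13 in Cb at 2 months and −0.21 in Cb at 3 months, beside 0.09, −0.10 and −0.08. For the differences between effects it was −0.62 for 3 against 2 months in F/M and −0.41 for Cb against F/M at 2 months, where *Jund* was called in both and *Junb* and *Vgf* in the latter, beside −0.07 and −0.06 over all genes. Over all genes the tenth richest in G and C had a median fold change of 0.03, −0.10 and 0.14 in F/M at 2 months, F/M at 3 months and Cb at 1 month. *Jund*, higher in F/M at 2 months and lower at 3 months, and *Egr4* and *Junb* at 3 months lie at that end, and the part of base composition in their values was not tested.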

How the data were processed

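Poly(A) RNA of F/M and Cb from individual mice was sequenced from stranded libraries. The authors aligned the reads to mm10 with STAR 2.5.2b and deposited raw counts per gene from featureCounts, per the file headers version 1.6.3 with GENCODE M21 at 1 month, 1.6.2 with M16 at 2 months and 1.6.2 with M18 at 3 months, with strand settings of 1, 2 and 1. The headers also name options that count multi-mapping reads as fractions, whereas the deposited values are whole numbers; they were used as counts, and how such reads entered them is not known. Totals of 10609896 to 29942380 reads set the counting error.

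Genes were filtered (filterByExpr), scaled by TMM and tested with edgeR 4.0.16 (quasi-likelihood) in R 4.3.3, each age fitted with its 4 groups; changes between 2 and 3 months used all 36 libraries. P-values were adjusted by Benjamini-Hochberg over all genes, and genes were called at an adjusted p under 0.1 and 1.5-fold, with no fold minimum for differences between effects. Errors of fold changes are standard errors, and intervals are 1.96 standard errors to each side. Alternatives were DESeq2 1.42.0, limma-voom (limma 3.58.1), other scalings, filters and covariates, and leaving out each library. Gene coordinates are those of GRCm38.

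The 35 genes and all lists were chosen with earlier results of these data known. Values per library are given for genes called in any comparison of genotype and for the 5 largest fold changes of each. The labels do not say whether equal replicate numbers mark 1 mouse. Over genes, same-numbered control and *Tpp1*-/- libraries deviated together with correlations of −0.085 to 0.229, over 0.1 in 6 of 18 pairs and throughout none of 6 sets, and same-numbered F/M and Cb libraries with −0.040 to 0.198, over 0.1 in 5 of 18 pairs and throughout 1 of 6 sets. The numbers were therefore not used as pairs, and the fit with them as a block is given as an alternative.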

Additional observations from a re-analysis of the deposited data

Results flagged for a closer look

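The effect of genotype differed between regions at 2 months, by a test of the difference itself (edgeR, Cb minus F/M on the log2 scale), for *Egr3* (−1.79), *Vgf* (−0.94), *Jund* (−0.89) and *Junb* (−0.67). *Egr3*, *Vgf* and *Junb* were called lower in Cb and not in F/M, and *Jund* was called higher in F/M and not in Cb. Midbrain and thalamus markers also moved in opposite directions in the regions at this age, and their part was not tested.

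The effect of genotype differed between 2 and 3 months, 3 months minus 2 months, for *Jund* in F/M (−1.48) and for *Egr3* (2.29) and *Nptx2* (1.76) in Cb. Age changed together with the annotation release and the strand setting, and their part in these differences cannot be told apart. Midbrain and thalamus markers had a lower mean log2 level in the *Tpp1*-/- Cb at 2 months and overlapped at 3 months, and their part was not tested.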

How the results depend on the processing

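Counts of genes called among the 35 depended on the fit as follows. The shares of all genes called in these other fits are not given here, so no count below can be read as particular to the set. In F/M at 2 months (6 called) 0 passed with the joint tissue marker score as a covariate, 3 at an adjusted p under 0.05, and 0 to 9 with 1 library left out. In F/M at 3 months (1 called) the count was 5 by DESeq2, 3 by limma-voom, 6 without a filter on low counts, 2 with sex, 0 with the tissue score, 7 with the 6 libraries alone and 1 to 5 with 1 library left out. In Cb at 1 month (0 called) it was 2 without the filter, 18 with the tissue score and 0 to 2 with 1 library left out (2 without Cb *Tpp1*-/- replicate 3). In Cb at 2 months (7 called) it was 0 with the tissue score, and 5 to 8 with 1 library left out. In Cb at 3 months (4 called) it was 2 by limma-voom, 7 with the tissue score, 0 with the 6 libraries alone, 2 when edgeR, DESeq2 and limma-voom all had to call a gene, and 1 to 3 with 1 library left out. For the difference between regions it was 2 without the filter at 1 month (0 called), 9 without the filter at 2 months (4 called) and 2 to 7 with 1 library left out (7 without F/M control replicate 2, 2 without F/M *Tpp1*-/- replicate 3), and at 3 months (0 called) 1 by DESeq2 and 2 without the filter. For the difference between ages in F/M (1 called) it was 0 by limma-voom, with library totals and at an adjusted p under 0.05, and 0 to 1 with 1 library left out. In Cb (2 called) it was 1 by limma-voom and at an adjusted p under 0.05, and 1 to 3 with 1 library left out (1 without Cb *Tpp1*-/- replicate 2 of 2 months, Cb control replicate 3 of 3 months or Cb *Tpp1*-/- replicate 1 of 3 months). In all, 2 fold changes turned in sign, both with the tissue score: *Jund* in F/M at 2 months (−0.05) and *Nptx2* in Cb at 2 months (0.56). The cause of these changes was not tested.

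With the replicate number as a block the count was 3 in F/M at 3 months, 6 in F/M at 2 months and 3 in Cb at 3 months. With same-numbered F/M and Cb libraries of a genotype as a block 1 gene differed between regions at 1 month. Same-numbered libraries of an age also share sex, and the labels do not tie them to 1 mouse; no pairing was used in the values reported. *Egr2* in Cb, with 0 to 6 reads a library at 2 months, was too low for its fold change to be measured at this depth.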
